A study of Mus musculus with 6 samples.

Results

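The genes described here encode the acid-secreting apparatus of the osteoclast, the multinucleated cell that resorbs bone. They are 33 genes named from knowledge of the pathway, and earlier results of these data were known when they were chosen. The set holds 11 subunits of the V1 sector of the vacuolar proton pump (V-ATPase) and 10 subunits of its V0 sector. It also holds 2 accessory proteins of the pump, 8 ion partners and 2 trafficking genes. Of the 26529 genes in the deposited table, 31 are members of this set, and 28 of them passed the filter on low values and were tested. Atp6v1b1 and Atp6v0a4 were not analysed here.

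RNA was sequenced from marrow-derived macrophages of wild-type C57BL/6 mice aged 8 weeks, all grown with the survival factor M-CSF at 20 ng/ml and the osteoclast-inducing cytokine RANKL at 10 ng/ml. The 3 libraries labelled osteoclast precursors (OCP) were taken after 3 days of culture and the 3 labelled osteoclasts (OC) after 6 days. The labels do not say whether these days count from the first RANKL, and both groups received it. The submitters identified both cell types by activity of tartrate-resistant acid phosphatase (TRAP). No label says whether replicates came from separate mice or separate cultures, so the p-values rest on variation among these libraries and it may be technical only. Values are RPKM, reads scaled to gene length and to the number of reads assigned to genes, and each library held 33219178 to 42121216 such reads.

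The osteoclast acidifies a sealed space on the bone surface. Carbonic anhydrase makes protons and bicarbonate from carbon dioxide and water, the V-ATPase drives the protons across the ruffled border, and ClC-7 carries chloride to balance their charge. An anion exchanger on the opposite membrane returns bicarbonate to the blood side and brings chloride in. The pump has a cytosolic V1 sector, which splits ATP and turns a rotor, and a membrane V0 sector, through which the protons pass. Loss of its osteoclast a3 subunit, of ClC-7 or its partner OSTM1, of carbonic anhydrase II, or of the trafficking proteins SNX10 and PLEKHM1 is known to cause osteopetrosis, a disease of dense bone.

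Many lysosomal and pump genes carry an E-box, CACGTG, or an M-box, TCATGTG, which are read by MITF and its relatives TFEB and TFE3, and MITF is needed for osteoclast maturation. RefSeq promoter windows on GRCm38.p6 were matched by symbol for 26 of the 33 members (37 windows, since some genes have several starts), and the 250 bases before each start were searched on both strands. CACGTG stood in 4 of the 37 windows (10.8%, against 6.02% of all 32851 windows), those of Clcn7, Atp6v0b, Clcn6 and Atp6v1a. TCATGTG also stood in 4 (10.8%, against 3.25%), those of Atp6v0c, Clcn5, Clcn6 and another start of Clcn7. The longer palindrome of the lysosomal CLEAR element, which contains CACGTG, was found in 0 of the 37 windows and in 0.24% of all windows. The AP-1 motif TGACTCA stood in 1 member window, of Snx10 (2.70%, against 4.46%). The stretches around CACGTG are shown because these 4 genes share the letters but not the result described below, with 3 lower in OC and Clcn6 not past the test. All lie outside annotated exons, run 5′ to 3′ on the gene's strand and have the E-box in capitals.
Clcn7, chr17:25133316-25133390, plus strand: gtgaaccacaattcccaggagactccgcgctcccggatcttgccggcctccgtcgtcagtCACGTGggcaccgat
Atp6v0b, chr4:117887334-117887425, minus strand: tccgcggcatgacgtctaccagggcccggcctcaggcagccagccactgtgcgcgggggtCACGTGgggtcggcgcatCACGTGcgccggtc
Clcn6, chr4:148038822-148038921, minus strand: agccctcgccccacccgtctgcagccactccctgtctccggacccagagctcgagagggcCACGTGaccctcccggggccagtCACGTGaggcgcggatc
Atp6v1a, chr16:44139325-44139450, minus strand: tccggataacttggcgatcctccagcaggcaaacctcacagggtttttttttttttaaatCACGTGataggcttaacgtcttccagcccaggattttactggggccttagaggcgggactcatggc
Atp6v0b and Clcn6 each held 2 E-boxes within 48 bases of the start, Clcn7 held 1 beginning 15 bases before it, and Atp6v1a 1 beginning 131 bases before it. The start used for Atp6v1a lies inside its annotated gene (44085402 to 44139705 on chromosome 16), and so does its printed stretch. A match is a description of the letters and not of binding.

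Transcripts of most of the acid secretion genes were less abundant in OC than in OCP. Of the 28 tested members 22 fell, 3 rose and 3 did not pass at an adjusted p under 0.05 in limma on log2(RPKM + 1), where 55.6% of all 12301 tested genes passed, 32.1% as lower and 23.5% as higher. The share lower differed by level, with 50.9% of tested genes at a mean of at least 100 RPKM in OCP and 22.8% under 10 RPKM. The median log2 fold change, OC minus OCP, was -0.44 over the tested members and -0.05 over all tested genes. The values of all 3 OC libraries lay below those of all 3 OCP libraries for the same 22 genes (36.0% of all tested genes did so), and above them for the 3 that rose (26.7%). A fall of at least 0.5 on the log2 scale was seen for 12 members and for 8.05% of all tested genes. Adding 1 to the RPKM understates changes of low genes, and that share is not matched for level. In mean RPKM, Car2 fell by 13.1% and Slc4a2 fell by 52.9%, the smallest and the largest proportion among the 22. In bulk RNA, fewer cells of a type and less RNA per cell cannot be told apart.

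**Figure D1:**
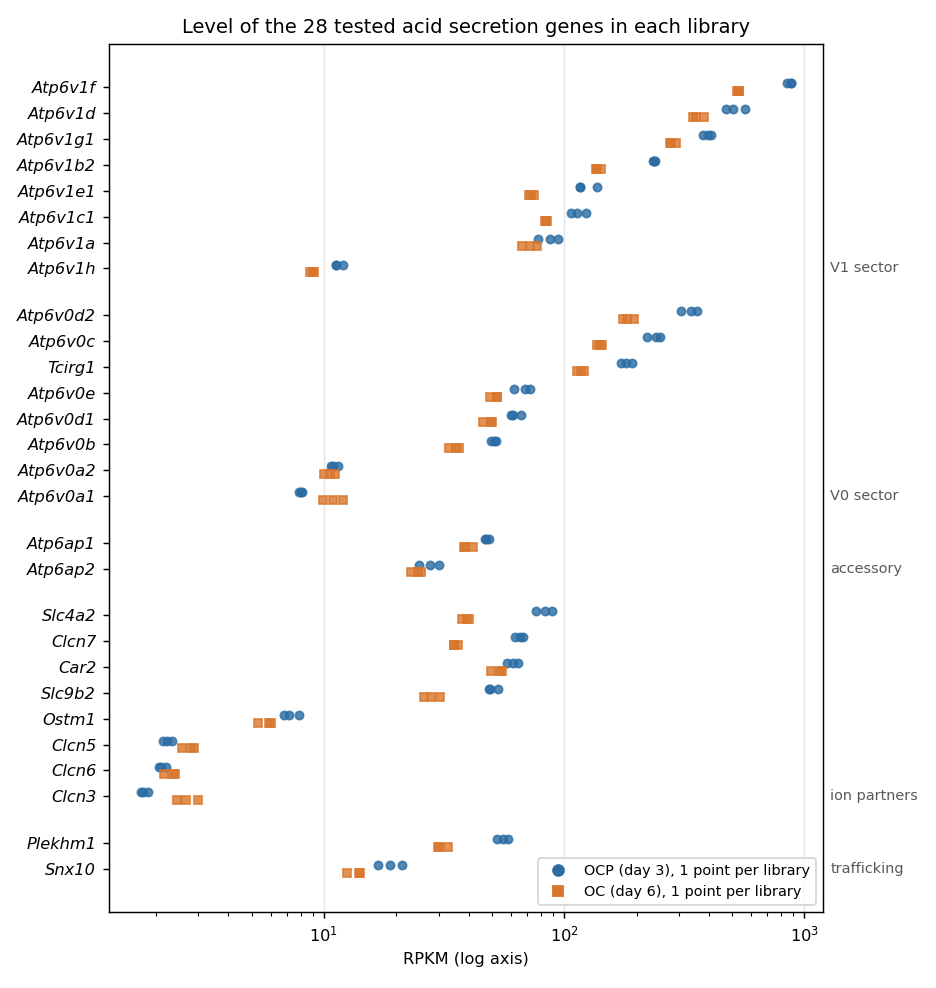
RPKM (log axis) of the 28 tested genes, with 1 circle per OCP library and 1 square per OC library, ordered by level within each group of genes. The squares lie to the left of the circles for 22 genes and to the right for Atp6v0a1, Clcn3 and Clcn5.

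The label OC was checked against 10 markers of osteoclasts, and all 10 were lower in OC, against 32.1% of all tested genes. The markers thus run against the label OC, and the groups keep their labelled names here. Whether the labels of the groups were exchanged was not tested, and an exchange would reverse every direction given. The summed level of the 10 markers was 4785 to 4924 RPKM in the OCP libraries and 2562 to 2653 RPKM in the OC libraries. Ctsk, the protease that degrades bone collagen, went from 3249 ± 108 to 1711 ± 25.0 RPKM (SD, n = 3 per group, as throughout). Acp5, the gene of TRAP, went from 642 ± 26.8 to 338 ± 13.0 RPKM, and is named here because of that stain. Of 10 macrophage markers 8 rose and 2 fell, where 23.5% of all tested genes were higher and 32.1% lower. The 10 summed to 5318 to 5771 RPKM in OCP and 8428 to 8934 RPKM in OC. Most of both sums was the lysozyme gene Lyz2, at 4080 ± 270 and 7197 ± 263 RPKM. The 2 that fell were Cd68, from 854 ± 31.3 to 721 ± 20.9 RPKM, and Csf1r, from 192 ± 6.38 to 165 ± 6.07 RPKM. Mrc1 and Cx3cr1 are among the 8 that rose and passed the filter only through OC, and without them 6 of 8 rose. Neutrophil markers summed to 34.5 to 38.1 RPKM in OCP and 48.9 to 53.3 RPKM in OC, and all 3 tested members rose, the most abundant being S100a9 at 23.2 ± 1.37 and 31.9 ± 1.98 RPKM. Of the other granule genes, Ngp was at 5.51 ± 0.842 and 7.94 ± 0.0879 RPKM and S100a8 at 6.24 ± 0.686 and 9.35 ± 0.577 RPKM, while Ltf, under the filter, was at 0.5505 ± 0.0699 and 1.08 ± 0.110 RPKM. Elane, Mpo, Camp and Retnlg were under 1 RPKM in all libraries. Cd68, Csf1r and the neutrophil genes other than S100a9 were named after their values were seen. Stromal and osteoblast, B and T cell, and erythroid markers summed to under 3 RPKM in every library. The part of these marker changes in the results on acid secretion was not tested.

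**Figure D2:**
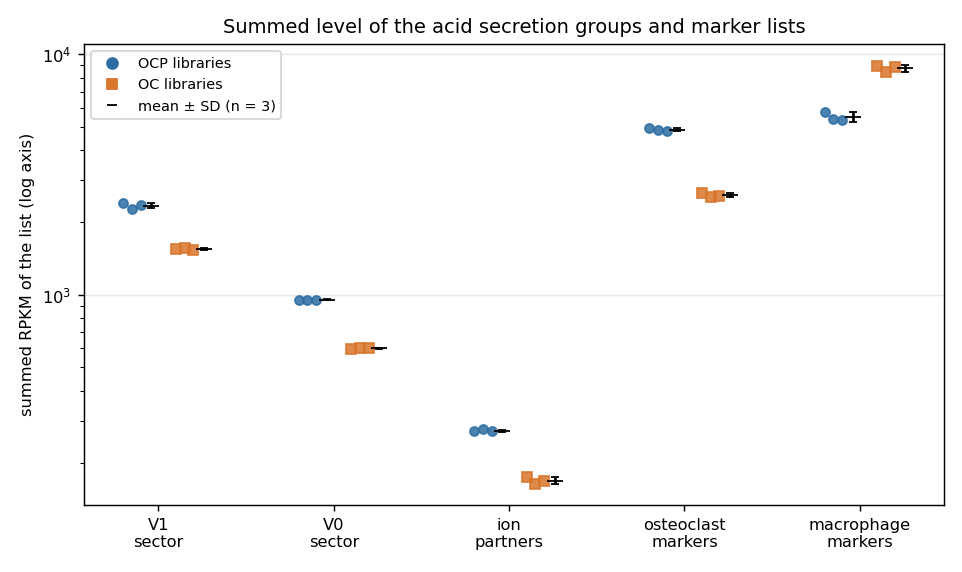
Summed RPKM (log axis) of the V1 sector, the V0 sector, the ion partners and the 2 larger marker lists, with 1 point per library and the mean ± SD. The sums of the 3 groups of acid secretion genes and of the osteoclast markers are lower in OC, and that of the macrophage markers is higher. The osteoclast sum is mostly Ctsk and the macrophage sum mostly Lyz2.

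In the V1 sector every tested subunit fell. All 8 of its tested subunits were lower in OC, with log2 fold changes from -0.77 to -0.26 and a median of -0.49. Over all alternatives to the main fit 7 to 8 V1 genes were called lower. Of all tested genes 32.1% were lower, and 50.9% of those with a mean of at least 100 RPKM in OCP. Summed over the 10 listed V1 genes, the level went from 2348 ± 61.4 to 1551 ± 17.2 RPKM, a decrease of 33.9%.

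The largest fall in V1 was that of Atp6v1b2, on mouse chromosome 8 (69088646 to 69113711, GRCm38), which encodes the B subunit that forms the ATP-splitting ring together with A. It was read at 236, 238 and 234 RPKM in OCP replicates 1, 2 and 3 and at 143, 137 and 136 RPKM in OC replicates 1, 2 and 3. The groups did not overlap, and each was narrow (log2 fold change -0.77, SE 0.04, adjusted p = 3.0e-06). Atp6v1e1, a subunit of the peripheral stalk that holds the ring still, was at 116, 117 and 136 RPKM in OCP and 74.6, 72.8 and 71.1 RPKM in OC. OCP replicate 3 stood above the other OCP libraries here, and the groups did not overlap (log2 fold change -0.75, SE 0.07, adjusted p = 5.1e-05).

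The most abundant member of the whole set was Atp6v1f, a small subunit of the rotor axle on chromosome 6 (29467718 to 29470512), which ranked 44th of all genes by its mean in OCP. Its values were 848, 878 and 876 RPKM in OCP and 534, 537 and 523 RPKM in OC. The gene fell by 38.8%, and the groups did not overlap (log2 fold change -0.71, SE 0.04, adjusted p = 3.8e-06). Atp6v1f has a pseudogene copy that is 97.5% identical over 360 bases and was not analysed here, so the division of reads between them is uncertain. Next in level came Atp6v1d, the central rotor shaft, at 514 ± 46.5 and 361 ± 19.4 RPKM, and Atp6v1g1, a stalk subunit, at 395 ± 14.5 and 283 ± 8.87 RPKM. Atp6v1d fell by 29.8% and Atp6v1g1 fell by 28.5%. Atp6v1g1 has a copy, the pseudogene Gm13453, that is 99.4% identical over its 357 bases and had means of 17.5 RPKM in OCP against 9.79 in OC, so the division of reads between them is uncertain.

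Atp6v1c1, whose product controls the joining of V1 to V0, went from 114 ± 8.29 to 83.9 ± 0.958 RPKM. Atp6v1h, another regulatory subunit, had the lowest level among the tested V1 genes, at 11.5 ± 0.421 and 8.95 ± 0.206 RPKM, and it fell too (adjusted p = 0.00086). The smallest fall in V1 was that of Atp6v1a, the catalytic subunit, whose E-box inside the annotated gene is printed above. It was at 93.8, 77.8 and 87.7 RPKM in OCP and 72.0, 66.5 and 76.9 RPKM in OC. OCP replicate 2 and OC replicate 3 differed by less than 1 RPKM, so the groups nearly touch (log2 fold change -0.26, SE 0.08, adjusted p = 0.022). The call was lost without OCP replicate 1 or 3 or without OC replicate 1 or 2 (adjusted p = 0.056 to 0.075), with quantile normalization (adjusted p = 0.061) and when low genes were left in (adjusted p = 0.069), with a range of 0.0056 to 0.075 over all alternatives.

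The remaining V1 genes were near silent. Atp6v1c2 had 3, 2 and 0 reads in OCP and 2, 1 and 3 reads in OC, at or under a floor of 3 reads per library, and no fold is given. Atp6v1g2, a G isoform known from neurons, had 70, 96 and 73 reads in OCP and 84, 92 and 85 reads in OC, or 0.806 ± 0.151 and 0.983 ± 0.110 RPKM. Its groups overlapped, and it did not pass in the fit with no filter (log2 fold change 0.14, adjusted p = 0.32). It shares 144 exon bases with Nfkbil1 on the opposite strand, and it is unknown here whether reads were counted by strand. The ubiquitous isoforms made up over 99% of the summed RPKM of the C and G subunits in every library.

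Most of the V0 sector fell too. Of its 8 tested genes 6 fell, 1 rose and 1 did not pass, where 32.1% of all tested genes were lower and 23.5% higher. The median log2 fold change of the 8 was -0.45. The summed level of the sector went from 953 ± 4.34 to 599 ± 1.69 RPKM, a decrease of 37.1%. Those that fell included both osteoclast-enriched isoforms, Tcirg1 and Atp6v0d2.

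The osteoclast isoform of the d subunit, Atp6v0d2, which links the V0 ring to the rotor and is needed for fusion of osteoclast precursors, had the largest fall in V0. It lies on chromosome 4 (19876841 to 19922605) and was read at 358, 308 and 337 RPKM in OCP and at 176, 182 and 196 RPKM in OC. The lowest OCP value was well above the highest OC value (log2 fold change -0.85, SE 0.07, adjusted p = 2.5e-05). Its ubiquitous paralog Atp6v0d1 also fell, but from a lower level, at 61.5, 66.3 and 60.1 RPKM in OCP and 49.8, 49.9 and 46.0 RPKM in OC (log2 fold change -0.36, SE 0.06, adjusted p = 0.00087). The d2 share of the summed d subunit RPKM was 85.3%, 82.3% and 84.9% in OCP and 77.9%, 78.5% and 81.0% in OC. All OC shares lay below all OCP shares, with means of 84.2% ± 1.64 and 79.1% ± 1.64. An exact two-sided permutation test gave p = 0.10 (n = 3 per group), the smallest that 3 against 3 allows, and 0.11 after adjustment over the 8 isoform quantities tested.

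Tcirg1 encodes a3, the a subunit isoform that brings the pump to the ruffled border, and lies on the minus strand of chromosome 19 (3896050 to 3907133). Its values were 172, 192 and 180 RPKM in OCP and 121, 118 and 113 RPKM in OC. Every OC library was lower than every OCP library (log2 fold change -0.62, SE 0.05, adjusted p = 3.8e-05). Atp6v0a1, the a1 isoform known from neurons and from intracellular vesicles, was the only one of the 8 tested V0 genes that rose, at 8.00, 8.11 and 7.87 RPKM in OCP and 10.9, 11.9 and 9.87 RPKM in OC. It was the OC libraries that were spread here, and their lowest value was still above the highest OCP value (log2 fold change 0.40, SE 0.07, adjusted p = 0.0016). Atp6v0a2, the a2 isoform of the Golgi and endosomes, was at 10.9, 11.5 and 10.7 RPKM in OCP and 11.1, 10.6 and 9.99 RPKM in OC, with overlapping groups (log2 fold change -0.06, adjusted p = 0.42). It shares 663 exon bases with an antisense gene.

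The makeup of the a subunit transcripts was also compared. Tcirg1 made up 90.1%, 90.8% and 90.6% of the summed a subunit RPKM in OCP and 84.6%, 83.9% and 85.1% in OC, so it remained the main isoform in all libraries. The a1 share was 3.996% ± 0.181 in OCP and 7.86% ± 0.593 in OC, and the a2 share 5.50% ± 0.177 and 7.61% ± 0.131. The ratio of Tcirg1 to Atp6v0a1 went from 22.7 ± 1.10 to 10.8 ± 0.859. The groups did not overlap in any of these shares or in the ratio, and the exact two-sided permutation test gave for each p = 0.10 (n = 3 per group; 0.11 adjusted over 8), the smallest possible.

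**Figure D3:**
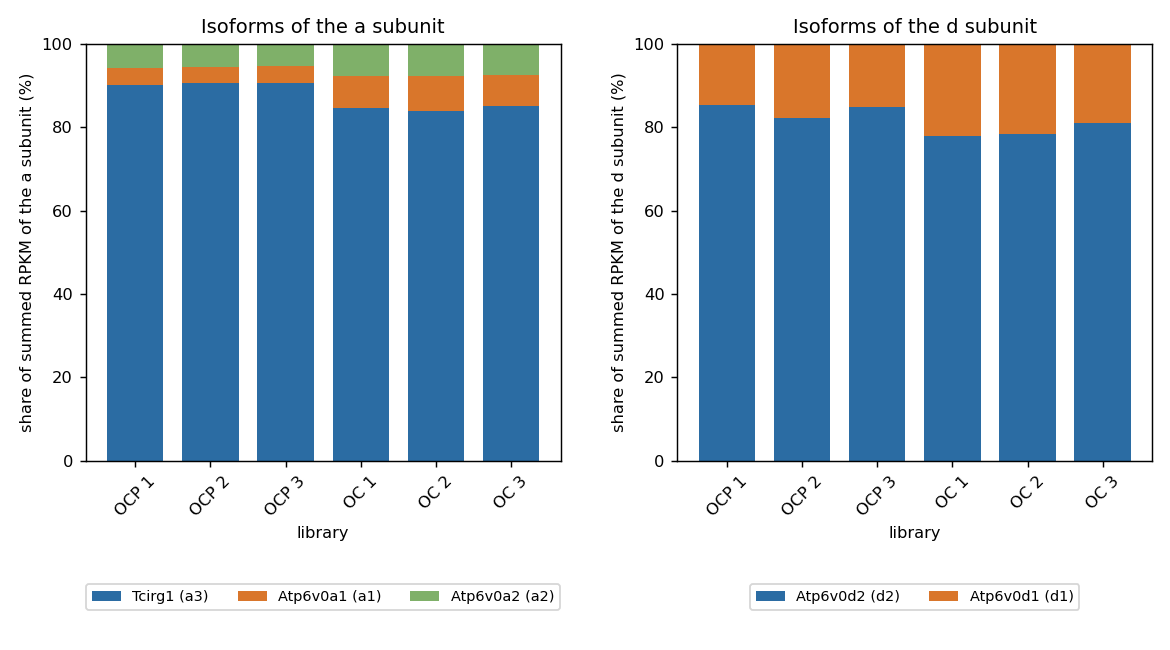
Share of the summed RPKM of the a subunit (left) and of the d subunit (right) taken by each isoform in each library, in percent. Tcirg1 and Atp6v0d2 hold the largest share in every library and a smaller one in the 3 OC libraries.

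The proton-carrying ring of V0 is built from the products of Atp6v0c and Atp6v0b. Atp6v0c was at 221, 250 and 240 RPKM in OCP and 141, 137 and 144 RPKM in OC. It fell by 40.7%, without overlap (log2 fold change -0.75, SE 0.05, adjusted p = 1.6e-05). Atp6v0c has a pseudogene copy that is 97.2% identical, with means of 1.05 RPKM in OCP against 0.615 in OC. Another copy, Atp6v0c-ps2, is 99.8% identical over 465 bases and was not analysed here, so the division of reads among these copies is uncertain. Atp6v0b, which carries 2 E-boxes in the stretch printed above, went from 50.9 ± 1.11 to 35.1 ± 1.64 RPKM (log2 fold change -0.52, adjusted p = 6.6e-05). It shares 243 exon bases with the antisense gene Gm12841, whose own values were 92.2, 88.6 and 85.4 RPKM in OCP and 64.7, 62.2 and 58.5 RPKM in OC, so its reads cannot be told apart from those of that gene without strand.

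The small e subunit gene Atp6v0e went from 67.4 ± 5.07 to 51.5 ± 2.04 RPKM and fell (adjusted p = 0.0013). Its paralog Atp6v0e2 was under the filter, with 0, 4 and 6 reads in OCP and 16, 30 and 24 reads in OC, or 0.0370 ± 0.0346 and 0.279 ± 0.0945 RPKM. All OC libraries lay above all OCP libraries, and it passed in the fit with no filter (log2 fold change 0.30, adjusted p = 0.019). Even so, Atp6v0e made up at least 99.28% of the e subunit RPKM in each library.

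Among the accessory proteins, which help to assemble and sort the pump, Atp6ap1 was at 47.1, 48.9 and 46.9 RPKM in OCP and 41.8, 38.3 and 38.7 RPKM in OC. It fell by 16.9%, without overlap (log2 fold change -0.26, SE 0.05, adjusted p = 0.0026). Atp6ap2, also known as the prorenin receptor, was at 30.2, 24.8 and 27.6 RPKM in OCP and 25.5, 23.1 and 24.5 RPKM in OC. Its groups overlapped because of OCP replicate 2 (log2 fold change -0.17, SE 0.07, adjusted p = 0.091), and without that library it passed (log2 fold change -0.24, adjusted p = 0.018). Its adjusted p ranged from 0.018 to 0.24 over all alternatives. Atp6ap2 has a pseudogene copy, Gm36448, that is 98.4% identical over 438 bases. That copy had means of 0.0414 RPKM in OCP and 0 in OC, and the division of reads between them is uncertain.

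The ion partners had the largest single fall and also members that rose. Of 8 tested 5 fell, 2 rose and 1 did not pass, where 32.1% of all tested genes were lower and 23.5% higher. The log2 fold changes of the ion partners ran from -1.07 to 0.41, with a median of -0.25. Their summed level went from 273 ± 2.61 to 169 ± 6.15 RPKM.

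Slc4a2, the chloride-bicarbonate exchanger of the membrane away from bone, lies on chromosome 5 (24423837 to 24440950). It was at 76.7, 88.6 and 83.6 RPKM in OCP and 39.5, 40.04 and 37.6 RPKM in OC, the largest fall of any member (log2 fold change -1.07, SE 0.06, adjusted p = 4.7e-06). It shares 1141 exon bases with Fastk on the opposite strand, which was listed at 14.6, 16.2 and 14.6 RPKM in OCP and 9.32, 9.36 and 9.49 RPKM in OC. Clcn7, the chloride-proton exchanger of the ruffled border on chromosome 17 (25133391 to 25162104), was at 62.4, 67.2 and 65.6 RPKM in OCP and 36.3, 34.8 and 34.7 RPKM in OC. The OC values were close together and all far below OCP (log2 fold change -0.87, SE 0.05, adjusted p = 3.6e-06). Its partner Ostm1, without which the ClC-7 protein is unstable, fell less, from 7.26 ± 0.541 to 5.74 ± 0.363 RPKM (log2 fold change -0.29, SE 0.07, adjusted p = 0.0079). Ostm1 shares 410 exon bases with the antisense gene Gm15200. That gene was at 27.2, 24.1 and 23.6 RPKM in OCP and 20.35, 16.4 and 23.2 RPKM in OC. Without strand, reads in the shared bases cannot be told apart between the 2 genes. In mean RPKM, Clcn7 fell by 45.9% and Ostm1 fell by 20.9%, and the difference between them was not tested.

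Slc9b2 encodes NHA2, a sodium-proton exchanger that is induced strongly when osteoclasts form. It was at 53.1, 48.9 and 49.0 RPKM in OCP and 30.4, 26.0 and 27.97 RPKM in OC, without overlap (log2 fold change -0.82, SE 0.07, adjusted p = 3.0e-05). Car2, carbonic anhydrase II, changed the least of the genes that fell, at 64.1, 57.9 and 61.0 RPKM in OCP and 55.3, 49.8 and 53.9 RPKM in OC. The lowest OCP library and the highest OC library were under 3 RPKM apart (log2 fold change -0.20, SE 0.06, adjusted p = 0.019). Its call was lost with quantile normalization (adjusted p = 0.17), with TMM factors (adjusted p = 0.055), without OCP replicate 3 (adjusted p = 0.055) and without OC replicate 2 (adjusted p = 0.064), with a range of 0.011 to 0.17 over all alternatives.

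The other ClC exchangers of the set, which serve endosomes and lysosomes outside the ruffled border, were all at a low level. Clcn3 rose, at 1.85, 1.76 and 1.74 RPKM in OCP and 2.66, 2.44 and 2.98 RPKM in OC (log2 fold change 0.41, SE 0.07, adjusted p = 0.0019). Clcn5 also rose, from 2.22 ± 0.0977 to 2.75 ± 0.155 RPKM (log2 fold change 0.22, SE 0.06, adjusted p = 0.019). This call was lost with quantile normalization (adjusted p = 0.058) and without OCP replicate 2 or 3 or OC replicate 1 or 3 (adjusted p = 0.060 to 0.067), and over all alternatives the adjusted p ranged from 0.00037 to 0.067. Clcn6, with 2 E-boxes in its printed stretch, was at 2.06, 2.21 and 2.10 RPKM in OCP and 2.35, 2.17 and 2.41 RPKM in OC, with overlapping groups (log2 fold change 0.08, SE 0.06, adjusted p = 0.30). The pseudocount of 1 understates changes at this level. With a pseudocount of 0.01 the log2 fold change was 0.59 for Clcn3 and 0.30 for Clcn5.

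Both trafficking genes fell. Plekhm1, an effector of RAB7 that brings lysosomes to the ruffled border, was at 52.5, 58.1 and 55.5 RPKM in OCP and 32.9, 30.2 and 29.9 RPKM in OC, without overlap (log2 fold change -0.82, SE 0.06, adjusted p = 1.5e-05). It shares 334 exon bases with the antisense gene Arhgap27os1. Snx10, a sorting nexin of endosomes, was at 21.1, 16.8 and 18.8 RPKM in OCP and 14.0, 12.5 and 14.1 RPKM in OC. The OCP libraries varied more here, without reaching the OC range (log2 fold change -0.45, SE 0.08, adjusted p = 0.0026).

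**Figure D4:**
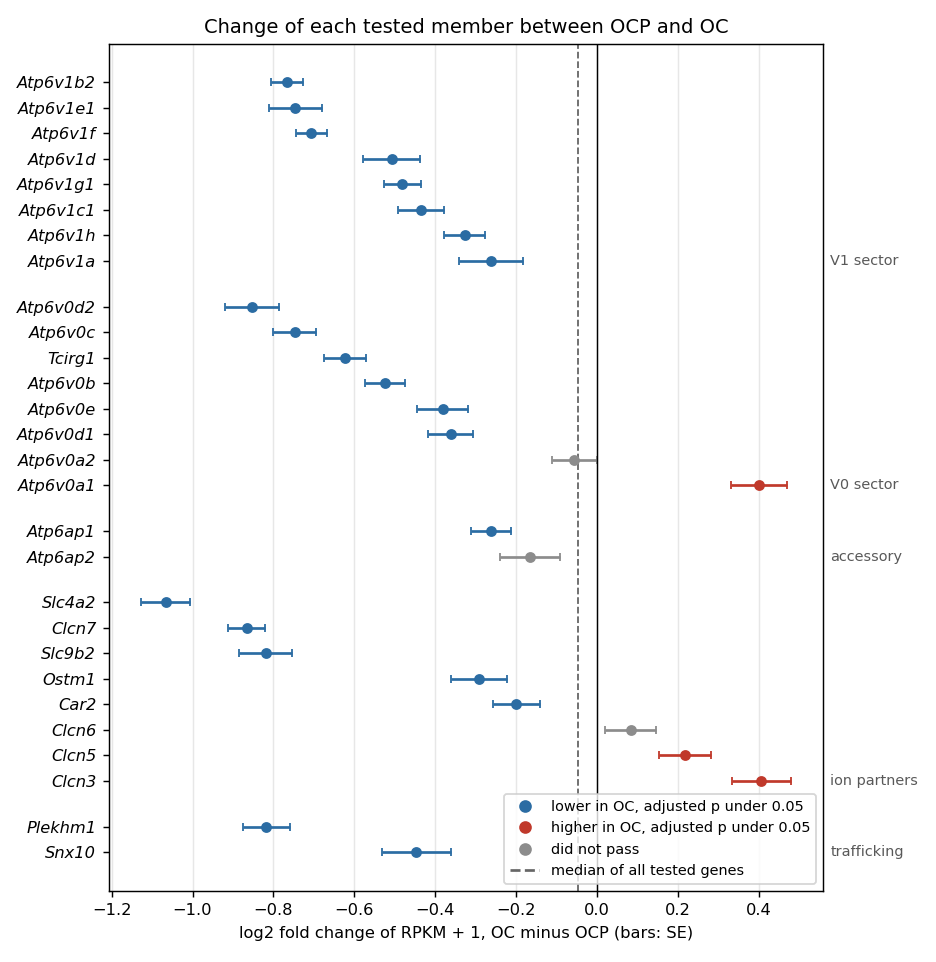
log2 fold change of RPKM + 1, OC minus OCP, for each tested gene, with SE bars, colour by the result of the test and a dashed line at the median of all tested genes. Slc4a2 lies farthest to the left at -1.07, and Atp6v0a1, Clcn3 and Clcn5 lie to the right of 0.

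Within the set, level and change went together. All 9 members with a mean of at least 100 RPKM in OCP fell, where 50.9% of the 639 tested genes at that level were lower. Of the 5 tested members under 10 RPKM 1 fell and 3 rose, where 22.8% of tested genes at that level were lower and 26.9% higher. Spearman's rho between the mean in OCP and the log2 fold change was -0.67 over the 28 tested members and -0.29 over all tested genes. This correlation is across genes that share the same libraries, and the OCP mean enters both of its quantities, so it is a description.

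**Figure D5:**
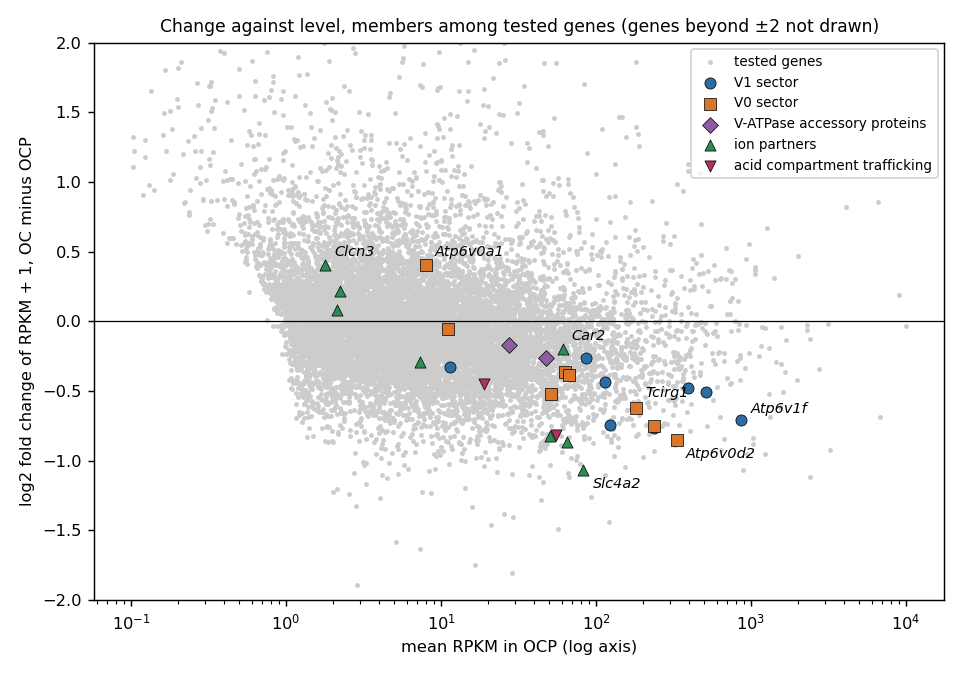
log2 fold change of RPKM + 1, OC minus OCP, against the mean RPKM in OCP (log axis), for all tested genes in grey and the members by group. Genes under 0.1 RPKM in OCP or beyond a log2 fold change of 2 are not drawn. The abundant pump subunits lie at the lower right and Clcn3 and Atp6v0a1 at the upper left of the members.

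Other genes of acid transport were counted in 5 further lists, and 11 of their 42 tested genes fell, 11 rose and 20 did not pass. Lower were 26.2% of the 42, against 32.1% of all tested genes, of which 23.5% were higher. The median log2 fold change was -0.06 over the 42 and -0.05 over all tested genes. Of the 42 genes 4 (Vma21, Slc4a8, Slc9a9 and Car4) reached 1 RPKM in 1 group only, so they were tested because that group is high. Without them 10 of 38 fell and 8 rose. Assembly factors and other pump genes had 3 lower and 2 higher of 10 tested. Oxr1, which binds the V1 sector, was the most abundant and fell from 46.8 ± 5.87 to 34.0 ± 2.63 RPKM, while Dmxl2, a subunit of the complex that reassembles V1 on V0, rose from 2.04 ± 0.310 to 3.79 ± 0.386 RPKM. Among 12 other channels 3 fell and 2 rose. The lysosomal cation channel Mcoln2 had the largest change, from 4.61 ± 0.322 to 12.7 ± 0.356 RPKM. Clic1, the most abundant, was at 159 ± 8.03 and 175 ± 2.98 RPKM (adjusted p = 0.042). It no longer passed under 8 of 15 alternatives, among them leaving out OCP replicate 1 or 3 or any of the OC replicates (adjusted p = 0.063 to 0.12).

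Of 7 tested exchangers and proton channels outside the set 3 rose and 1 fell, and without Slc9a9 and Slc4a8 2 of 5 rose and 0 fell. The voltage-gated proton channel gene Hvcn1, the most abundant of them over all libraries, rose from 7.84 ± 0.105 to 10.4 ± 0.0994 RPKM. Slc9a9, an endosomal sodium-proton exchanger, rose from 0.895 ± 0.0417 to 2.12 ± 0.329 RPKM. Slc4a8, the 1 that fell, went from 1.44 ± 0.0692 to 0.521 ± 0.0296 RPKM. With voom on recovered reads the log2 fold change was -1.43 for Slc4a8 and 1.26 for Slc9a9. Carbonic anhydrases other than Car2 had 2 of 3 tested genes higher, or 1 of 2 without Car4. Car13, a cytosolic enzyme like carbonic anhydrase II, rose from 9.73 ± 1.44 to 14.8 ± 1.19 RPKM, and Car4, which is anchored to the outer membrane face, from 0.0351 ± 0.0176 to 2.78 ± 0.218 RPKM. The RAB7 and lysosome positioning list had 4 lower and 2 higher of 10. Rab7 itself was at 169 ± 7.19 and 156 ± 4.36 RPKM and did not pass (adjusted p = 0.085), and its effector Rilp fell from 7.96 ± 0.429 to 4.34 ± 0.418 RPKM. For each of these lists the shares to compare with are 32.1% lower and 23.5% higher over all tested genes. Whether the lists differ from the members or from all tested genes was not tested.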

How the data were processed

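The table deposited by the authors holds RPKM per gene for 6 RNA-seq libraries, with exon coordinates and gene length. The tools named in the submitters' processing notes are Trimmomatic 0.36, STAR 2.5.3a and featureCounts. The library kit keeps strand, per the labels, but for the strand setting in counting, multi-mapping and duplicate removal the choice is not given in the sources used here. The notes name the human build GRCh38, but the coordinates are of mouse genes: 28 of 31 members have the same start and end in GENCODE M21, so positions are given on GRCm38. RPKM times length gave whole reads (within 0.01) for 100% of values. Replicates differed beyond counting noise (chi-square divided by its degrees of freedom, 5.18 to 21.4), so none was merged.

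A gene was tested if 3 of the 6 libraries or more reached 1 RPKM, so a gene high in 1 group only could pass through that group. The test was limma 3.58.1 under R 4.3.3 and statmod 1.5.0 on log2(RPKM + 1), with trend and robust moderation, Benjamini-Hochberg adjustment over all 12301 genes and a two-sided threshold of 0.05, without a replicate block. A fold change on this scale understates the change of low genes. Isoform shares used exact permutation over samples. The steps were also run on simulated reads with far fewer changed genes than here, so that run does not measure error rates in these data. The alternatives left out each library in turn, set the pseudocount to 0.1 or 0.01, dropped the filter or raised it to 5 RPKM on average, scaled by quantiles or by TMM factors without precision weights, omitted trend and robust moderation, added a replicate block, or used voom on recovered reads. Pseudogene copies were found by blastn (at least 85% identity over at least 50% of their length).

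The members and gene lists were chosen with earlier results of these data known. All members may be named. Of each other pathway list the most abundant tested gene and the called gene with the largest change are named. Of the osteoclast, macrophage and neutrophil marker lists the most abundant gene is named, besides those given above with a reason. Vma21, Slc4a8, Mrc1 and Cx3cr1 are also named, because they passed the filter only through the group where they are high. The floor of 3 reads covers counting error only.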

Additional observations from a re-analysis of the deposited data

How the results depend on the processing

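Of the 28 tested members 24 kept their direction and their side of the threshold under each of the 15 alternatives in which they were tested, and none of the 28 reversed. The exceptions were Atp6v1a, Atp6ap2, Clcn5 and Car2. The members called lower numbered 20 to 23 over all alternatives, against 22, and those called higher 1 to 4, against 3. With a mean of at least 5 RPKM 1 member was called higher, since Clcn3 and Clcn5 were then not tested, and 1645 genes in all were higher, against 2889, among 7228 tested. Leaving out 1 library at a time gave 20 to 23 members lower and 2 to 3 higher. The median log2 fold change of the members lay between -0.50 and -0.38, and that of all tested genes between -0.09 and 0.00. Over all tested genes 3954 were lower and 2889 higher, but TMM factors gave 3346 lower and 3366 higher, and voom on recovered reads 3632 and 3460. Under a replicate block 3851 genes were lower and 2827 higher, and of the members' calls it changed that of Atp6ap2 alone, which passed (log2 fold change -0.17, adjusted p = 0.036). Whether equal numbers pair the libraries is not known here. The correlations of deviations between libraries of the same number were -0.11, 0.14 and 0.01, and those between unlike numbers ran from -0.28 to 0.26. With 3 libraries per group such correlations cannot decide it. At the depth of these libraries Atp6v1c2 is at the floor, and a change in it was not detectable.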
